A study of Mus musculus with 12 samples.

Results

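The 9 genes described here encode 6 transcription factors of the epithelial to mesenchymal transition (Snai1, Snai2, Twist1, Twist2, Zeb1 and Zeb2) and 3 proteins used as mesenchymal markers (Vim, Cdh2 and S100a4). They were chosen by name, with earlier results of these data known. All 9 were found among the 17718 genes counted and among the 13013 tested. RNA-seq was made from the cultured mouse colorectal carcinoma line CT26, with 3 libraries of Mll3 wild-type cells, labelled as untreated, and 3 of Mll3 knock-out cells. All 6 carry 1 batch date. The knock-out columns are named sg1, sg2 and sg3, and the labels do not say whether these are guides, clones or repeats of 1 population. The gene Mll3, now Kmt2c, encodes a methyltransferase of histone H3 lysine 4. Whether libraries of 1 genotype are separate cultures is not stated, so the p-values cover the variation among these libraries, which may be technical.

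In an epithelial to mesenchymal transition, cells lose the junctions and keratins of an epithelium and take on a motile form. SNAI and ZEB proteins are zinc finger repressors that bind E-box sequences in epithelial genes such as Cdh1, the gene of E-cadherin. TWIST proteins are basic helix-loop-helix factors that bind E-boxes as dimers with E proteins. Vimentin is the main intermediate filament of mesenchymal cells, N-cadherin (Cdh2) is a junction protein of mesenchymal and neural cells, and S100A4 is a calcium-binding protein also known as fibroblast-specific protein.

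Promoters are shown for some of the 9 genes, as the 250 bases before the RefSeq start (GRCm38.p6, the assembly of mm10), read 5′ to 3′. Capitals mark matches, on either strand, to 4 motifs: the E-box CAGGTG, the AP-1 site TGANTCA, the GC box GGGCGG and the TATA box TATAAA. Windows were found for 6 of the 9 genes, and none was found for Snai2, the gene with the largest difference. The Snai1 window (chr2:167537945-167538194, plus strand), the Twist1 window (chr12:33957421-33957670, plus strand), the Twist2 window (chr1:91801211-91801460, plus strand) and the Vim window (chr2:13574061-13574310, plus strand) follow.
Snai1: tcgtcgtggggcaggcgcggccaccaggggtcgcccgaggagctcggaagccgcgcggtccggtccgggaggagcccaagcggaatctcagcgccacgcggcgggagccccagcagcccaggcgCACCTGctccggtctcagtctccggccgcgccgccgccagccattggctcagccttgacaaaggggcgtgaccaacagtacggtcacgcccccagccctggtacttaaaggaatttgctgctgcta
Twist1: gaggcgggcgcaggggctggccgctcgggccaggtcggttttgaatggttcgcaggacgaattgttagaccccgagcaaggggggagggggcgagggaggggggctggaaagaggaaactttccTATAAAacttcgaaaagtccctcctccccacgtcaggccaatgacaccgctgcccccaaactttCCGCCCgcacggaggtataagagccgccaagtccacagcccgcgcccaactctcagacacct
Twist2: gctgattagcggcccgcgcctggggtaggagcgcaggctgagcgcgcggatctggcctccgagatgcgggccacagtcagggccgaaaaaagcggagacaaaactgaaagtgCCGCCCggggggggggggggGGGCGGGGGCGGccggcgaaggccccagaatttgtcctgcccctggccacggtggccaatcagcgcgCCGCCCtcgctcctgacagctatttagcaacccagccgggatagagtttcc
Vim: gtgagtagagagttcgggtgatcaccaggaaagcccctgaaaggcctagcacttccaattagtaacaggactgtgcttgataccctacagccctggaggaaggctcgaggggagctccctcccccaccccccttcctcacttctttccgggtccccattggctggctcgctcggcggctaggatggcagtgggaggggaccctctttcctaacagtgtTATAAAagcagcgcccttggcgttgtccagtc

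Snai1 was the only one of the 6 genes with a CAGGTG match, read there as CACCTG and starting 126 bases before the start. SNAI1 is known to bind an E-box of its own promoter. Of 32841 RefSeq promoter windows of this length, 17.2% hold that motif. Twist2 held 4 GC boxes, of which the middle pair lie end to end, and Twist1 held 1. In Zeb2, 3 of its 4 windows held 1 each. The windows at chr2:45113280-45113529 and chr2:45113254-45113503 overlap and hold the same GC box, 122 and 148 bases before their starts. Of all windows 32.7% hold at least 1 GC box. In Vim the TATA box match lay 32 bases before the start and in S100a4 31 bases before it, while Twist1 held one farther off, at 126 bases. Of all windows 12.4% hold one. The 2 TWIST promoters therefore differ in these letters, while no window of the Vim and S100a4 genes held an E-box or AP-1 match.

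Zeb2 has 4 annotated starts, and the AP-1 motif occurred at 1 of them, with 2 matches that start 189 and 132 bases before it. AP-1 is the dimer of JUN and FOS family proteins, and 6.75% of windows hold the motif. Only a short stretch around each is shown, from chr2:45110450-45110476 and chr2:45110393-45110419 on the minus strand.
Zeb2 distal: cgcctagcctTGAGTCAagcagtctta
Zeb2 proximal: tcaggagttaTGACTCAttttgaagat
A match in these windows is a run of letters and not a measured binding site.

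The library totals ran from 9559658 to 13406013 counts, so that 1 count stood for 0.0786 to 0.108 CPM (counts scaled by library size, here with TMM factors). Kmt2c, the targeted gene, had 24.9, 26.2 and 25.0 CPM in wild-type libraries 1, 2 and 3, against 15.96, 11.16 and 14.8 CPM in knock-out libraries sg1, sg2 and sg3 (log2 fold change -0.87, SE 0.129, edgeR adjusted p = 4.33e-08). The position of the edit cannot be read from a count per gene. Over all genes 66.2% were called at an adjusted p under 0.05, 33.1% higher and 33.2% lower in the knock-out, and the groups did not overlap for 68.7%. The median log2 fold change over all genes was 0.015, and other scalings shifted it, to 0.17 for upper-quartile and 0.14 for library size alone.

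Of the 9 genes, 3 rose and 3 fell in the knock-out, which is near the 66.2% of all genes that were called. Snai2 and Zeb2 fell, Vim and Twist2 rose, and for these 4 of 9 the groups did not overlap, a smaller share than the 68.7% of all genes. The calls for Snai1 (higher) and Cdh2 (lower) were small and their groups overlapped. Twist1, Zeb1 and S100a4 were not called. Against a change of 1.5-fold, edgeR's glmTreat called Snai2 and Zeb2 lower and Vim higher, 3 of 9, where it called 20% of all genes (11.1% higher and 8.87% lower). The median log2 fold change of the 9 was 0.12, beside 0.015 over all genes tested. In bulk RNA, fewer cells with a transcript and less of it per cell cannot be told apart.

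**Figure D1:**
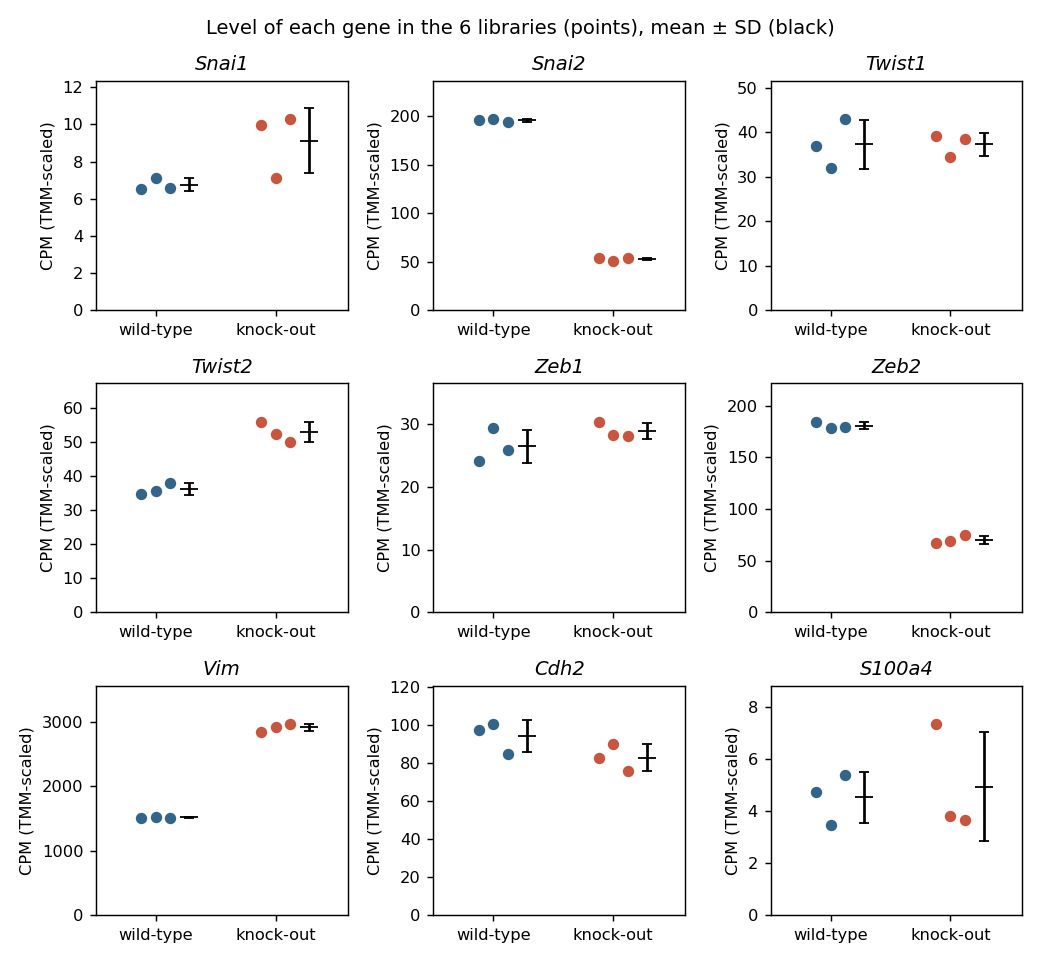
TMM-scaled CPM (y axis, from 0, a separate scale for each gene) of the 9 genes in the 3 wild-type and 3 knock-out libraries (points), with the mean and SD in black. The points of the genotypes lie apart for Snai2, Zeb2, Vim and Twist2 and overlap for the other 5 genes. Over all genes tested they lie apart for 68.7%.

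Among the SNAI repressors, Snai2 (Slug; ENSMUSG00000022676, chromosome 16, 14705852 to 14709395, mm10) had the largest difference of the 9. Wild-type libraries had 196, 197 and 194 CPM, and knock-out libraries had 53.5, 51.0 and 53.2 CPM. Every knock-out library lay far below every wild-type library, and the spread within a group was a few CPM. The transcript was 3.72-fold lower (log2 fold change -1.90, SE 0.0547, 95% interval -2.01 to -1.79, n = 3 per group, edgeR adjusted p = 2.4e-36). Of all genes tested, 4.1% had a larger change in either direction.

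Snai1 (Snail; ENSMUSG00000042821, chromosome 2, 167538195 to 167542814) is the other SNAI repressor measured well enough to test. Its counts were 83, 70 and 61 in wild-type and 102, 82 and 107 in the knock-out. In CPM the wild-type libraries had 6.52, 7.14 and 6.58 and the knock-out libraries 9.98, 7.09 and 10.3. Knock-out sg2 lay inside the wild-type range and the other knock-out libraries above it. The log2 fold change was 0.43 (SE 0.193, 95% interval 0.044 to 0.82, edgeR adjusted p = 0.0451). The call was lost in 11 of 16 alternatives, among them DESeq2 (adjusted p = 0.0828), limma voom (0.0656) and no filter (0.0659). Leaving out 1 library ended it for wild-type 1 (adjusted p = 0.106), wild-type 2 (0.0540), wild-type 3 (0.0774), sg1 (0.171) and sg3 (0.208).

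Of the ZEB repressors, Zeb2 (ENSMUSG00000026872, chromosome 2, 44983512 to 45117442) was the one that differed. The wild-type libraries had 185, 178 and 180 CPM and the knock-out libraries 67.0, 68.8 and 74.9 CPM. The lowest wild-type library was above the highest knock-out library by more than the spread of either group. Zeb2 was 2.58-fold lower (log2 fold change -1.37, SE 0.0541, 95% interval -1.47 to -1.26, edgeR adjusted p = 7.95e-30). An antisense gene, Zeb2os, overlaps its start region, and whether counting used strand was not given in the sources used here. Zeb2os held 42, 14 and 27 counts in wild-type and 29, 21 and 18 in the knock-out, beside 1665 to 2349 and 684 to 795 counts for Zeb2.

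Zeb1 (ENSMUSG00000024238, chromosome 18, 5591327 to 5775468) had 24.1, 29.4 and 26.0 CPM in wild-type and 30.4, 28.3 and 28.2 CPM in the knock-out. The highest wild-type library fell within the knock-out values. The log2 fold change was 0.13 (SE 0.104, 95% interval -0.076 to 0.34, edgeR adjusted p = 0.264), an interval that leaves out any fall of the size seen for Zeb2. The call depended on the scale: with upper-quartile scaling the value was 0.29 (adjusted p = 0.0130), with library size alone 0.25 (0.0289) and with chromosome medians removed 0.45 (0.000107).

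The TWIST genes also parted. Twist2 (Dermo1; ENSMUSG00000007805, chromosome 1, 91801461 to 91848034) had 34.7, 35.7 and 38.0 CPM in wild-type and 55.9, 52.4 and 50.1 CPM in the knock-out. All knock-out libraries were above all wild-type libraries. The rise was 1.46-fold (log2 fold change 0.55, SE 0.0825, 95% interval 0.39 to 0.72, edgeR adjusted p = 5.2e-08). It did not pass the test against a 1.5-fold change (adjusted p = 0.975). Twist1 (ENSMUSG00000035799, chromosome 12, 33957671 to 33959831) had 36.9, 31.9 and 42.9 CPM in wild-type and 39.1, 34.3 and 38.5 CPM in the knock-out. The knock-out values lay inside the wild-type range. Its log2 fold change was 0.0024 (SE 0.0945, 95% interval -0.19 to 0.19, edgeR adjusted p = 0.983), and its sign changed between alternatives.

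Ratios of paralogues within a library do not depend on how libraries are scaled. Gene lengths differ, so only the change of a ratio between genotypes can be read. For each Snai1 count there were 30.1, 27.6 and 29.5 Snai2 counts in wild-type and 5.36, 7.20 and 5.18 in the knock-out, a ratio 4.97-fold lower (log2 difference -2.31, SE 0.155). Zeb2 to Zeb1 went from 7.65, 6.07 and 6.91 to 2.20, 2.43 and 2.66, 2.83-fold lower (log2 difference -1.50, SE 0.125). Twist2 to Twist1 went from 0.938, 1.12 and 0.884 to 1.43, 1.53 and 1.30, 1.45-fold higher (log2 difference 0.54, SE 0.122). In each of the 3 pairs the genotypes did not overlap, and the share of other gene pairs without overlap was not counted. A two-sided exact permutation test over libraries gave p = 0.1 for each pair (0.1 after Benjamini-Hochberg adjustment over 3), the smallest p that 3 against 3 allows, so it cannot pass 0.05.

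**Figure D2:**
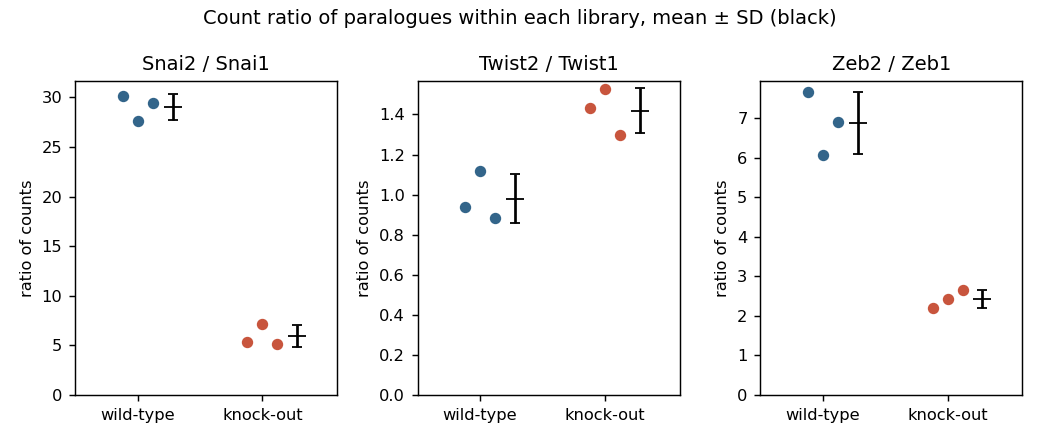
Ratio of raw counts (y axis, linear, from 0) of Snai2 to Snai1, Twist2 to Twist1 and Zeb2 to Zeb1 in each library (points), with the mean and SD in black. Snai2 to Snai1 has means of 29.1 and 5.91 in wild-type and knock-out, and Zeb2 to Zeb1 has 6.88 and 2.43, while Twist2 to Twist1 is higher in the knock-out.

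Vim (ENSMUSG00000026728, chromosome 2, 13574311 to 13582826) rose while these 2 repressor genes fell. Its libraries had 1511, 1524 and 1514 CPM in wild-type and 2851, 2930 and 2968 CPM in the knock-out. The spread among wild-type libraries was far smaller than their gap to the knock-out. As a share of all counts, with no scaling, Vim took 0.143%, 0.145% and 0.147% in wild-type and 0.298%, 0.304% and 0.309% in the knock-out. The rise was 1.92-fold (log2 fold change 0.94, SE 0.0299, 95% interval 0.88 to 1.00, edgeR adjusted p = 2.42e-34).

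Cdh2 (N-cadherin; ENSMUSG00000024304, chromosome 18, 16588877 to 16809246) had 97.0, 100.2 and 84.5 CPM in wild-type and 82.5, 89.9 and 75.5 CPM in the knock-out. Wild-type 3 lay below knock-out sg2, so the groups overlapped. The log2 fold change was -0.18 (SE 0.0649, 95% interval -0.31 to -0.055, edgeR adjusted p = 0.0107). The call was lost with upper-quartile scaling (-0.027, adjusted p = 0.727) and library size alone (-0.063, adjusted p = 0.391), and the value turned to 0.14 with chromosome medians removed (adjusted p = 0.0518). It was also lost without wild-type 1 (adjusted p = 0.0504), wild-type 2 (0.0751) or knock-out sg3 (0.0976).

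S100a4 (ENSMUSG00000001020, chromosome 3, 90603770 to 90606045) was counted 34 to 75 times per library. Its CPM values were 4.71, 3.47 and 5.39 in wild-type and 7.34, 3.81 and 3.65 in the knock-out. Knock-out sg1 stood above all the others, and the other knock-out libraries lay inside the wild-type range. The log2 fold change was 0.12 with a wide 95% interval of -0.42 to 0.65 (SE 0.266, edgeR adjusted p = 0.713). Without sg1 it was -0.29 (adjusted p = 0.421).

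Gene copy number can differ between cultured lines, so each gene was set beside the 20 tested genes nearest to it, 10 on each side. The 20 around Snai2 had a median log2 fold change of -0.058 and a range of -0.70 to 1.00, and all 20 lay above Snai2. Around Zeb2 the median was -0.18 and the range -1.61 to 2.04, and 19 of 20 lay above it. Around Vim the median was 0.075 and the range -1.50 to 2.18, with 17 of 20 below it. Around Twist2 the median was -0.14 and the range -1.30 to 2.46, with 15 of 20 below it. Each of these 4 genes thus stood away from the median of its neighbourhood, and Snai2 alone of the 4 stood outside its range.

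Zeb1 lies near the start of chromosome 18, where 18 neighbours could be used, and 16 of these fell and 1 rose. Their median was -0.72, and 16 of the 18 lay below Zeb1. Chromosome 18 as a whole had a median of -0.32. The neighbours of Cdh2, on the same chromosome, had a median of -0.11, with 10 above and 10 below it. Of the 20 genes around S100a4, 12 rose and 3 fell, with a median of 0.37, and 15 lay above S100a4. Whether gene copy number differed was not tested.

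**Figure D3:**
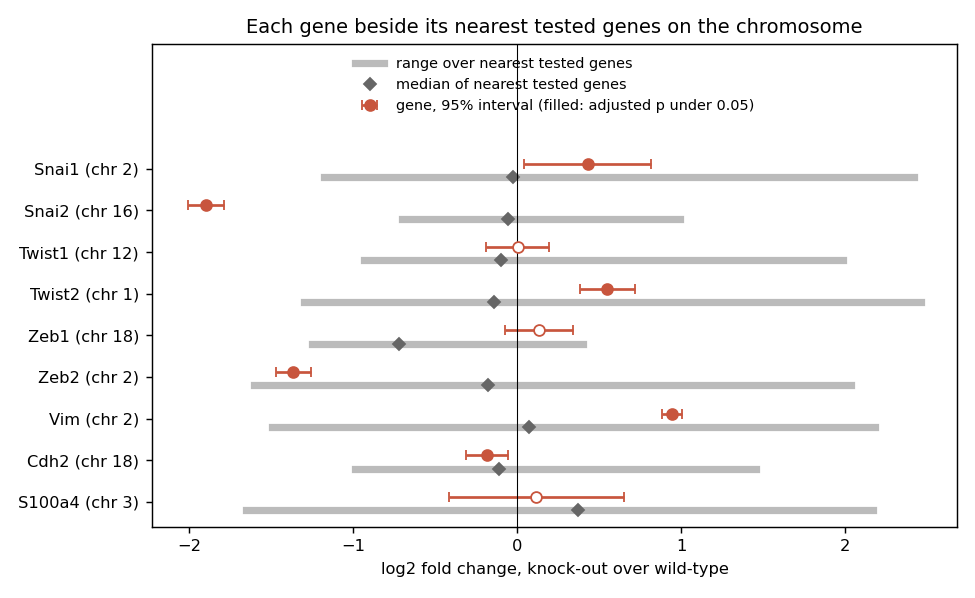
Log2 fold change, knock-out over wild-type (x axis), of each gene with its 95% interval (circles, filled where the edgeR adjusted p is under 0.05), above the range (grey bar) and median (diamond) of its 20 nearest tested genes, 18 for Zeb1. Snai2 lies outside the range of its neighbours, and the neighbours of Zeb1 centre on -0.72 while Zeb1 has 0.13.

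The other genes of the pathway were taken from 10 lists by role, drawn up with earlier results of these data known. Their counts are read against the 33.1% of all genes that rose, the 33.2% that fell and the 66.2% called in all. With upper-quartile scaling the whole table shifted to 5587 higher and 3183 lower of 13013, and with library size alone to 5266 and 3440. Of 10 tested other transcription factors of the transition, 5 rose and 4 fell (33.1% and 33.2% of all genes), with a median of 0.15 that was -0.056 when genes below an average log2 CPM of 1 were left out. Foxc2, which rose, had 9, 11 and 7 counts in wild-type and 20, 27 and 13 in the knock-out. It needed the knock-out libraries to enter the test. Foxq1, which fell, had 51, 31 and 35 counts in wild-type and 15, 8 and 15 in the knock-out. It needed the wild-type libraries. Prrx2, a paired-type homeobox gene, rose from 23.1 ± 3.65 to 46.3 ± 4.35 CPM (mean ± SD, n = 3). Its paralogue Prrx1 fell from 237 ± 13.4 to 189 ± 7.29 CPM. Hmga2, a chromatin protein that induces Snai1 and Twist1 in other cells, fell from 512 ± 9.00 to 400 ± 21.9 CPM. This pair of Prrx genes therefore moved in opposite directions.

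TWIST dimers depend on E proteins and are kept apart by ID proteins, which bind E proteins and cannot bind DNA. Of the 6 tested genes of this group, 5 rose and 1 fell, where 33.1% of all genes rose and 66.2% were called, with a median of 1.02. The inhibitor genes Id3 and Id1 rose from 9.56 ± 0.819 to 40.9 ± 0.737 CPM and from 7.96 ± 1.29 to 26.99 ± 1.17 CPM. Tcf3, which encodes the E proteins E12 and E47, rose from 52.8 ± 5.86 to 103 ± 6.95 CPM. For all 3, named for their small p, the lowest knock-out library was above the highest wild-type library. Over all genes 68.7% had groups that did not overlap.

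Of 16 tested corepressors that SNAI and ZEB proteins recruit, 7 rose and 5 fell, near the 66.2% of all genes called, with a median log2 fold change of 0.020 that became -0.041 with chromosome medians removed. Sin3a, a scaffold of histone deacetylases, rose by 0.82, and Suv39h1, a histone H3 lysine 9 methyltransferase, rose by 0.71 on the log2 scale. Rcor1, a partner of the demethylase LSD1, fell by 0.48.

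Of 15 genes for the turnover of SNAI proteins, 4 rose and 5 fell, shares near or below the 33.1% and 33.2% of all genes. Their median of -0.028 turned to 0.13 under upper-quartile scaling and to 0.094 under library size alone. Gsk3b, the kinase that marks SNAI1 for degradation, fell from 157 ± 5.05 to 83.9 ± 6.99 CPM. Fbxw11, a ubiquitin ligase subunit closely related to the one that reads this mark, fell from 151 ± 10.2 to 99.6 ± 4.93 CPM. Mdm2, the ubiquitin ligase of p53, rose from 352 ± 19.4 to 516 ± 13.7 CPM. RNA counts do not measure SNAI protein.

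Genes of the signals that induce the transition, among them the inhibitor gene Smad7, moved both ways. Of 18 tested, 9 fell and 5 rose, with a median of -0.26, beside 33.2% of all genes lower and 33.1% higher. Il6, which fell, had 48, 48 and 33 counts in wild-type and 7, 7 and 13 in the knock-out. It needed the wild-type libraries to enter the test. Fosl1, an AP-1 subunit, had 225, 215 and 251 CPM in wild-type and 72.5, 75.6 and 72.7 CPM in the knock-out. Tgfb3, a TGF-beta ligand, rose by 2.70 and Smad7, an inhibitor of TGF-beta receptors, fell by 1.84 on the log2 scale.

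Of 16 tested mesenchymal effector genes other than the 9, 6 rose and 5 fell, near the 33.1% and 33.2% of all genes, with a median of 0.18. The counts were 9 and 2 with upper-quartile scaling and 8 and 2 with library size alone, scalings that raised the whole table as given above. Col3a1, Col1a1 and the matricellular gene Sparc had the smallest p of this list, with log2 fold changes of 2.83, 1.58 and 0.62. The 5 that fell were Axl (-0.38), Cd44 (-0.38), Lgals1 (-0.14), Fn1 (-0.15) and Itga5 (-0.15). Among the 6 that rose, Acta2 had 4, 0 and 1 counts in wild-type and 53, 38 and 45 in the knock-out. It needed the knock-out libraries to enter the test. The summed level of the list was 6142 to 6262 CPM in wild-type and 5980 to 6076 CPM in the knock-out.

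Of 27 epithelial genes 7 could be tested, and 6 of these rose, where 33.1% of all genes did. Among the 6, Krt7 (16, 13 and 7 counts in wild-type) and Krt8 (1, 1 and 2) needed the knock-out libraries to enter the test. Krt18 rose from 38.8 ± 1.48 to 111 ± 5.85 CPM, Krt20 from 14.97 ± 0.574 to 51.8 ± 3.93 CPM and Jup, which encodes the junction protein plakoglobin, from 9.00 ± 0.580 to 28.9 ± 2.93 CPM. Genes low in both genotypes did not enter the test, so the 7 do not stand for the list. Cdh1 and Epcam, the defining epithelial genes, had no row in the table and are not analysed here, so that a change of E-cadherin in these cells cannot be read.

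Of 10 genes of filaments and linkers related to vimentin 6 were tested. All 6 rose, where 33.1% of all genes did, with a median log2 fold change of 0.57, and with chromosome medians removed 5 rose and 1 fell. Des, with 11, 6 and 6 counts in wild-type and 69, 47 and 58 in the knock-out, needed the knock-out libraries to enter the test. Nefl, a neurofilament gene, rose from 18.2 ± 0.542 to 49.6 ± 0.961 CPM. The nuclear lamin gene Lmna had 326, 333 and 349 CPM in wild-type and 490, 493 and 493 CPM in the knock-out. Plec, which encodes the linker plectin, rose by 0.60 on the log2 scale.

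No other cadherin of the list for Cdh2 could be tested. Of the 5 tested genes of that list, the 4 catenin genes and the protease gene Adam10, 4 rose and 0 fell, where 33.1% of all genes rose and 33.2% fell. Jup, also counted among the epithelial genes, had the smallest p. Ctnnb1 (beta-catenin) rose from 262 ± 7.68 to 360 ± 12.3 CPM, and Adam10, whose protease sheds N-cadherin, rose by 0.24 on the log2 scale. Of 9 tested S100 genes and partners of S100A4, 6 rose and 0 fell, against 33.1% and 33.2% of all genes, with a median of 0.46. All 9 rose with upper-quartile scaling, which raised the whole table. Myh9, the non-muscle myosin chain that S100A4 binds, rose from 434 ± 16.5 to 596 ± 8.22 CPM. S100a16 and S100a11, S100 genes of the same chromosome as S100a4, rose by 1.08 and 0.33.

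**Figure D4:**
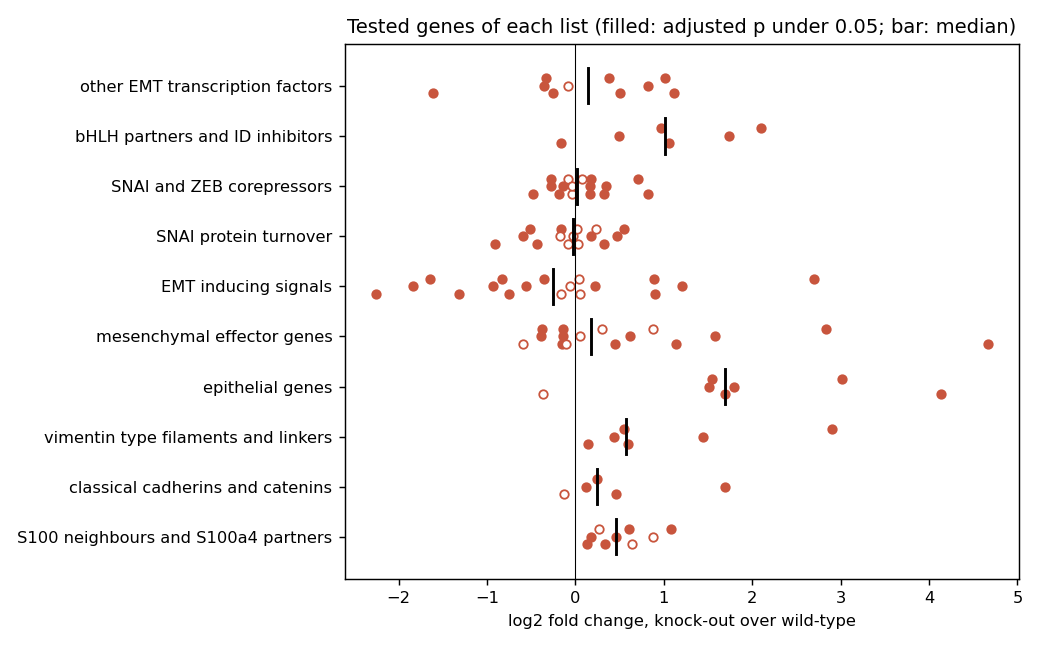
Log2 fold change, knock-out over wild-type (x axis), of every tested gene of the 10 lists (circles, filled where the edgeR adjusted p is under 0.05), with the median of each list as a black bar. The epithelial genes and the dimer partners and inhibitors of TWIST have medians of 1.69 and 1.02, while the corepressor and turnover lists centre near 0. The epithelial median includes Krt7 and Krt8, which needed the knock-out libraries to enter the test.

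Markers of other cells, and of colon epithelium as the tissue of the line itself, were counted beside these values. Of 8 fibroblast markers 5 were tested and 4 rose, where 33.1% of all genes did, and their summed level was 1009 to 1025 CPM in wild-type and 1320 to 1359 CPM in the knock-out. Vim and S100a4 are also expressed by fibroblasts, and Col1a1 of this list was also counted among the mesenchymal effector genes. Of 8 immune markers 3 were tested, with 1 higher and 1 lower and sums of 18.7 to 23.0 and 18.8 to 23.5 CPM. These sums hold opposite changes: Lyz2, the lysozyme gene of myeloid cells, rose from 0.553 to 8.80 CPM, and Csf1r, the receptor of macrophage growth factors, fell from 15.2 to 6.72 CPM. Lyz2 had 8, 8 and 2 counts in wild-type and 96, 100 and 87 in the knock-out, whose libraries it needed to enter the test. Ptprc, the pan-leukocyte marker, had 1 count in each wild-type library and 3, 4 and 2 in the knock-out. Of 6 endothelial markers 1 was tested, Pecam1, and the sums were 0.471 to 1.94 and 1.96 to 3.11 CPM. Pecam1 was called higher, with 3, 3 and 10 counts in wild-type and 19, 30 and 22 in the knock-out, whose libraries it needed to enter the test. Of 10 colon epithelium markers 3 were tested and rose, beside 33.1% of all genes, and their sums were 53.0 to 55.5 and 161 to 174 CPM. These were Krt18, Krt20 and Krt8, all counted above among the epithelial genes, and Krt8 needed the knock-out libraries to enter the test. The part of other cells in the change of Vim was not tested.

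For each gene that passed the threshold, the genes most alike over the 6 libraries were found by the root mean square difference of log2 CPM, after each profile was centred on its wild-type mean. With 2 genotypes this measure mostly finds genes with a similar fold change. For Snai2 they were Dusp8 (0.0670), Ankrd1 (0.0677) and Snhg1 (0.0702), for Zeb2 Nsd3 (0.0425), Riok3 (0.0445) and Apol9b (0.0524), and for Vim Tuba1b (0.0215), Timp2 (0.0336) and Tceal9 (0.0371). For Twist2 they were Phlda3 (0.0222), Heatr5b (0.0226) and Ankrd52 (0.0288), for Snai1 Rtn2 (0.0421), Itpr3os (0.0428) and Fuk (0.0544), and for Cdh2 Ppme1 (0.0282), Cep55 (0.0386) and Cyb5r4 (0.0448). Tuba1b, an alpha-tubulin gene, is thus the gene whose profile was nearest to that of Vim, with 517 and 992 CPM in wild-type and knock-out.

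**Figure D5:**
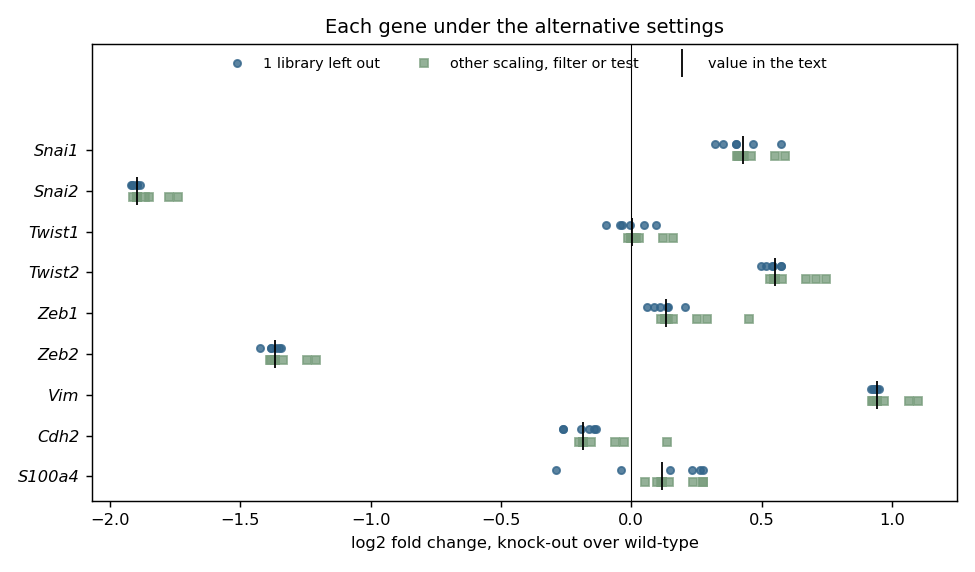
Log2 fold change, knock-out over wild-type (x axis), of each gene under 16 alternatives: 1 library left out (circles) or another scaling, filter or test (squares), with the value in the text as a black line. Snai1, Snai2, Twist2, Zeb1, Zeb2 and Vim keep their side of 0, and Twist1, Cdh2 and S100a4 have values on both sides of it. The calls of Snai1 and Zeb1 changed between alternatives.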

How the data were processed

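The table the authors deposited holds raw read counts by Ensembl identifier. The submitters' processing notes name fastp, STAR and HTSeq and genome build mm10. Tool versions, the annotation and whether counting used strand were not given in the sources used here. Directional polyA libraries were made, per the labels' protocols. Each gene listed has counts in 3 or more libraries. Symbols were found for 17650 identifiers, and positions came from RefSeq (GRCm38.p6) for 11921 tested genes.

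The filter was edgeR's filterByExpr (minimum count 10, minimum total 15), and TMM gave the scale. Genotypes were compared by edgeR's quasi-likelihood test with robust estimation (edgeR 4.0.16, limma 3.58.1, R 4.3.3), with Benjamini-Hochberg adjustment over all 13013 genes and a threshold of 0.05. SE was derived from the F statistic. The code was tested on simulated counts. Pairs of libraries of a group differed by a mean of 2.14 to 3.82 times counting variance, so none were merged. Alternatives were 3 other scalings, 2 filters, DESeq2 1.42.0, limma voom, glmTreat, an adjusted p of 0.01, removal of chromosome medians, and leaving out each library.

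The 9 genes and the lists were chosen with earlier results of these data known. The rule for naming genes takes all 9, Kmt2c, Cdh1, Epcam, the 3 tested genes with the smallest p of each list, and the 3 genes most alike to each called gene (average log2 CPM of at least 1, no predicted names). Ptprc, Pecam1, Lyz2, Csf1r, Zeb2os, Krt7, Krt8, Des, Axl, Cd44, Lgals1, Fn1 and Itga5 were named after their values were seen. So were Acta2, Foxc2, Foxq1 and Il6. Marker lists were counted by how many members passed the test. The series' CUT&Tag and tumour single-cell libraries are not analysed here.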

Additional observations from a re-analysis of the deposited data

How the results depend on the processing

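Snai2, Zeb2 and Vim kept their direction and call in all 16 alternatives, with log2 fold changes from -1.92 to -1.74, from -1.43 to -1.21 and from 0.92 to 1.10. Twist2 kept its direction (0.50 to 0.75) and lost its call with glmTreat alone. With glmTreat 1 of the 9 genes was called higher, and 1448 genes rose and 1154 fell over all. Twist1 had -0.014 with no filter and -0.097 to 0.096 when 1 library was left out, and S100a4 had -0.29 to 0.28 then. Cdh2 had 0.14 with chromosome medians removed. The cause of these changes was not tested, other than that glmTreat asks for a larger change. Of all calls 49.9% were higher, against 63.7% under upper-quartile scaling and 60.5% under library size alone, and under these 2 scalings Cdh2 lost its call and Zeb1 gained one, while Snai1 kept its call. Snai1 and S100a4, at 61 to 107 and 34 to 75 counts per library, have the widest intervals of the 9. No paired analysis was possible because the knock-out columns carry no number that the labels tie to a replicate.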

Other observations

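Several genes of the lists were counted too rarely to test, and those given here were chosen after their values were seen. Snai3, the SNAI family gene outside the 9, had 0, 2 and 0 counts in wild-type and 0, 1 and 1 in the knock-out. Grhl2, an epithelial transcription factor that opposes Zeb1, had 6, 8 and 3 counts in wild-type and 5, 0 and 0 in the knock-out. Cdh3, the gene of P-cadherin, had 9, 9 and 0 counts and 1, 0 and 0. The gelatinase gene Mmp2 had 2, 0 and 0 counts and 1, 2 and 3. No comparison was made for these genes.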
